A study of Mus musculus with 6 samples.

Results

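Transcripts of the IL-6 receptor pathway and of its feedback were followed in CD4+ T cells of mouse spleen. The 10 genes were Il6ra, Il6st, Osmr, Stat3, Socs3, Socs1, Cish, Pim1, Pim2 and Bcl3, taken as the probe sets that the platform annotation assigns to 1 of these symbols alone. Of 22180 genes measured, these 10 were all found, 7 with 1 probe set and 3 (Socs3, Cish and Pim1) with 2, of which the brighter was used. The cells had been isolated with magnetic beads and were kept for 12 hours in RPMI medium with 10% serum under stimulation by anti-CD3/CD28 antibodies (1 µg/ml), so every group, the control included, was an activated one. Cells of the PlGFCM group received medium conditioned by clones of HEK-293, a human embryonic kidney line, that overexpress PlGF2, a form of placental growth factor. Control conditioned medium was given alone in the ConCM group and together with IL-6 at 20 ng/ml in the IL6_ConCM group. Each group held 2 arrays, and the labels state neither how much PlGF the medium held nor the strain or age of the mice.

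In this pathway IL-6 binds its receptor chain Il6ra, and the complex recruits gp130, the shared signal chain that Il6st encodes. Janus kinases bound to gp130 then phosphorylate STAT3, which enters the nucleus as a dimer and drives target genes, among them Socs3, whose product binds gp130 and its kinases and ends the signal. In CD4+ T cells the pathway is best known for its part in the differentiation of Th17 cells, the helper cells that make IL-17.

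Socs3 and Cish are feedback genes with the letters TTCNNNGAA, the palindrome that STAT dimers bind, near their start sites, while the window of Il6ra, the other gene that passed a test below, holds none. The windows, from RefSeq on GRCm38.p6, run from 250 bases before the start site to 50 bases after it and are printed 5′ to 3′ with each match in capitals. They lie at chr11:117969317-117969616 on the minus strand for Socs3, at chr9:107296409-107296708 on the plus strand for Cish and at chr3:89913147-89913446 on the minus strand for Il6ra.
Socs3: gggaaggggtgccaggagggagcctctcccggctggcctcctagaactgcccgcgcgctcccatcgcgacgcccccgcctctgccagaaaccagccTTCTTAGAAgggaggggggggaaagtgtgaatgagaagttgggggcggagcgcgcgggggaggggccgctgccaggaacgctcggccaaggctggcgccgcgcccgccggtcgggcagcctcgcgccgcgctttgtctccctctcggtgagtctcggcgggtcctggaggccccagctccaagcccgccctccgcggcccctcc
Cish: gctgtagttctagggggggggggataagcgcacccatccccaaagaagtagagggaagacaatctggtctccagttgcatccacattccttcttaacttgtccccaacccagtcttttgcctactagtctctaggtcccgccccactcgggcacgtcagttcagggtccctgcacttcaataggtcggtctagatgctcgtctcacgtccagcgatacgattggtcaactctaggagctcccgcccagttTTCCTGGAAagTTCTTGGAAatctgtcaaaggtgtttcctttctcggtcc
Il6ra: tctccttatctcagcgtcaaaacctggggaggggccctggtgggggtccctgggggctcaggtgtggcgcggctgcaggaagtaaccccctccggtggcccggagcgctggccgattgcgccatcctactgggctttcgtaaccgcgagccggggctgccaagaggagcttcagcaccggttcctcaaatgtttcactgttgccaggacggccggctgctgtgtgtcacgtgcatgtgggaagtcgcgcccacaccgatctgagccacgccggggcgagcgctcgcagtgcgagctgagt
The match in the Socs3 window is TTCTTAGAA and begins at position -154. The Cish window holds TTCCTGGAA from position 1 and TTCTTGGAA from position 12, counted with 1 as the first of the 50 bases after the start. The motif reads the same on both strands, and no matches overlapped. All 10 genes had a window, and 2 of the 10 held the motif, against 9.55% of 27025 genes and 8.3% of 32851 windows. A match describes the letters in this window and is not a measured binding site.

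Defining markers of the labelled cell type were present. Log2 levels of Cd3e, a chain of the T cell receptor complex, were 11.84 to 12.17 and those of Cd4 11.13 to 11.40 on the 6 arrays. Listed markers of other cell types ran from percentile 9.64 of all probe set levels (S100a8) to 88.2 (Cd68), with Cd8b1 at 84.6. How pure the cells were was not tested. The array PlGFCM replicate 2 stood apart in sex-linked transcripts, since Xist was at 8.38 there and at 3.58 to 3.95 on the other 5 arrays. Y-linked transcripts were lowest there but still present. Eif2s3y was at 8.59 against 8.90 to 9.14, Uty at 7.50 against 7.77 to 8.14 and Kdm5d at 7.07 against 7.42 to 7.77. The labels state no sex, and what sets this array apart was not tested. Results that rest on this array are also given without it. Whether the replicates are separate animals or cultures is not stated, and the p-values therefore reflect a spread between arrays that may be technical.

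The comparison of PlGFCM with ConCM asked which transcripts differ in medium with PlGF. Il6ra and Socs3 were higher in PlGFCM, Bcl3, Stat3 and Il6st had smaller positive changes that did not pass, and Pim2 had a negative change that did not pass. A gene was said to rise or fall where its p from limma, adjusted by Benjamini-Hochberg across the 22180 genes, lay under 0.05. By this rule 2 of the 10 genes rose and none fell, where 0.433% of all genes passed in either direction (0.352% upwards and 0.0812% downwards). At an unadjusted p under 0.05, 5 of the 10 were higher and 1 lower, where 8.74% of all genes reached it, 4.19% upwards. The median log2 change of the 10 was 0.15, with a range of -0.24 to 0.49.

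**Figure D1:**
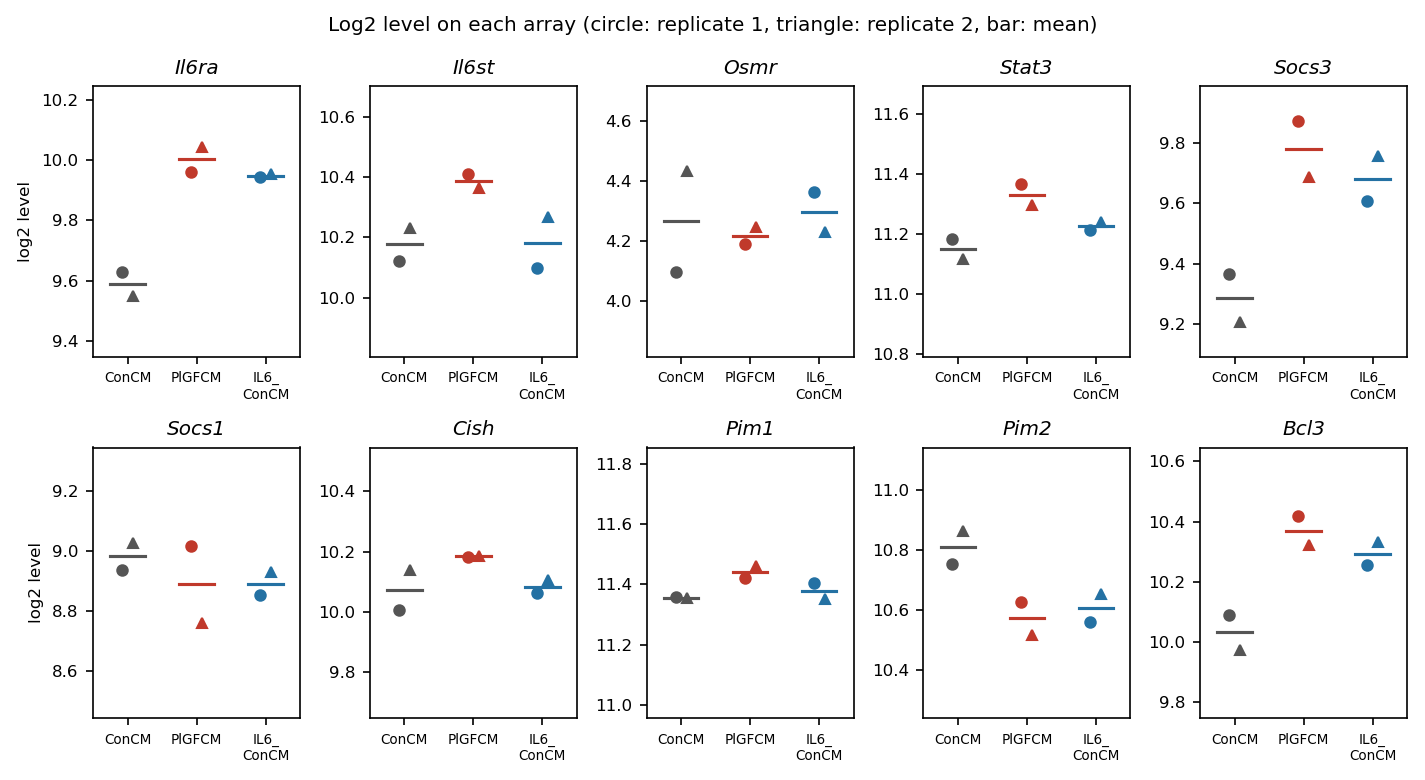
Log2 level of each of the 10 genes (vertical axis) on the 6 arrays by group, with circles for replicate 1, triangles for replicate 2 and a bar at the group mean. Every panel spans the same height in log2 units, and in the panels of Il6ra, Stat3, Socs3 and Bcl3 both ConCM arrays lie below the other 4.

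Il6ra, the chain that binds IL-6, had log2 levels of 9.63 and 9.55 on the ConCM arrays, 9.96 and 10.04 on the PlGFCM arrays, and 9.94 and 9.95 on those with IL-6. Both ConCM arrays lay below all 4 others, while the lower PlGFCM array (9.96) and the higher IL6_ConCM array (9.95) nearly met. The change in PlGFCM was 0.41 ± 0.07 (SE), a 1.33-fold level, and the limma adjusted p was 0.0285. Without PlGFCM replicate 2 the change was 0.37 with an adjusted p of 0.251. The call was likewise lost without ConCM replicate 1 (0.45, adjusted p = 0.0777), ConCM replicate 2 (0.37, adjusted p = 0.212) or PlGFCM replicate 1 (0.45, adjusted p = 0.165). For Il6ra it was also lost with no intensity trend in the fit (adjusted p = 0.386) and with all probe sets tested singly (adjusted p = 0.305). In bulk RNA a lower level per cell and a smaller share of cells with the transcript cannot be told apart.

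Il6st, which encodes gp130, stood at 10.12 and 10.23 on the ConCM arrays, 10.41 and 10.36 on the PlGFCM arrays, and 10.10 and 10.27 on those with IL-6. Its PlGFCM arrays lay above the other 4, and ConCM and IL6_ConCM overlapped. The change in PlGFCM was 0.21 ± 0.08 (SE) with a limma adjusted p of 0.406. Osmr encodes the chain that pairs with gp130 to bind oncostatin M. Its levels ran from 4.10 to 4.43 over the 6 arrays, with those extremes both in ConCM and all groups overlapping. Of the 10 genes, Osmr was the 1 below the 25th percentile of all probe sets (4.34), and the other 9 lay above the median of 5.48.

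Stat3, the transcription factor of the pathway, had log2 levels of 11.18 and 11.12 on the ConCM arrays, 11.37 and 11.30 on the PlGFCM arrays, and 11.21 and 11.24 on those with IL-6. The groups did not overlap and were ordered ConCM, IL6_ConCM, PlGFCM. The change in PlGFCM was 0.18 ± 0.06 (SE) with a limma adjusted p of 0.325, so the order did not hold up as a call.

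Among the feedback inhibitors, Socs3 had levels of 9.37 and 9.21 on the ConCM arrays, 9.87 and 9.69 on the PlGFCM arrays, and 9.61 and 9.76 on those with IL-6. Both ConCM arrays were the lowest, and PlGFCM and IL6_ConCM overlapped. Socs3 rose by 0.49 ± 0.09 (SE) in PlGFCM (1.41-fold), and its limma adjusted p was 0.0442. Its second probe set, which is dimmer, gave log2 changes of 0.45 ± 0.12 in PlGFCM and 0.46 ± 0.12 in IL6_ConCM against ConCM. Tested over all 41345 probe sets, neither Socs3 probe set passed in PlGFCM (adjusted p = 0.428 and 0.569). The gene's call was lost without ConCM replicate 1 (0.57, adjusted p = 0.0729), ConCM replicate 2 (0.41, adjusted p = 0.278), PlGFCM replicate 1 (0.40, adjusted p = 0.341) or PlGFCM replicate 2 (0.59, adjusted p = 0.146). It was also lost with no intensity trend (adjusted p = 0.397), after subtraction of array medians (0.0538) and with its probe sets averaged (0.0667).

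Socs1, an inhibitor of Janus kinases that interferons and other cytokines induce, gave no call in either comparison with ConCM. It stood at 8.94 and 9.03 on the ConCM arrays, 9.02 and 8.76 on the PlGFCM arrays, and 8.85 and 8.93 on those with IL-6. Levels in PlGFCM overlapped with those of both other groups. The change of Socs1 was -0.09 in PlGFCM and -0.09 in IL6_ConCM, with 95% intervals of -0.30 to 0.12 in each. Cish, an inhibitor best known as a target of STAT5, had levels between 10.01 and 10.19 over the 6 arrays. Both PlGFCM arrays (10.18 and 10.19) were above the other 4, with a change of 0.11 (95% interval -0.04 to 0.26). Its dimmer probe set had changes of 0.09 in PlGFCM and -0.04 in IL6_ConCM.

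Pim1 and Pim2 encode serine and threonine kinases that support survival of activated lymphocytes and that cytokines induce through STAT factors. Pim1 varied least of the 10 genes, by 0.11 log2 units over the 6 arrays, at 11.36 and 11.35 on the ConCM arrays, 11.42 and 11.46 on the PlGFCM arrays, and 11.40 and 11.35 on those with IL-6. The change in PlGFCM was 0.08 (95% interval -0.03 to 0.20). Pim2 ran the other way, at 10.75 and 10.86 on the ConCM arrays, 10.63 and 10.52 on the PlGFCM arrays, and 10.56 and 10.65 on those with IL-6. Both its ConCM arrays lay above the other 4, with a change of -0.24 ± 0.07 (SE) in PlGFCM and a limma adjusted p of 0.276.

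Bcl3 encodes an atypical member of the IkappaB family that joins NF-kappaB subunits on DNA. Its levels were 10.09 and 9.97 on the ConCM arrays, 10.42 and 10.32 on the PlGFCM arrays, and 10.26 and 10.33 on those with IL-6, so both ConCM arrays were the lowest and the other groups overlapped. The change in PlGFCM was 0.34 ± 0.07 (SE), a 1.26-fold level that missed the threshold (limma adjusted p = 0.0806). It passed in 1 of 17 alternatives, the test restricted to genes of at least median level (adjusted p = 0.0440).

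**Figure D2:**
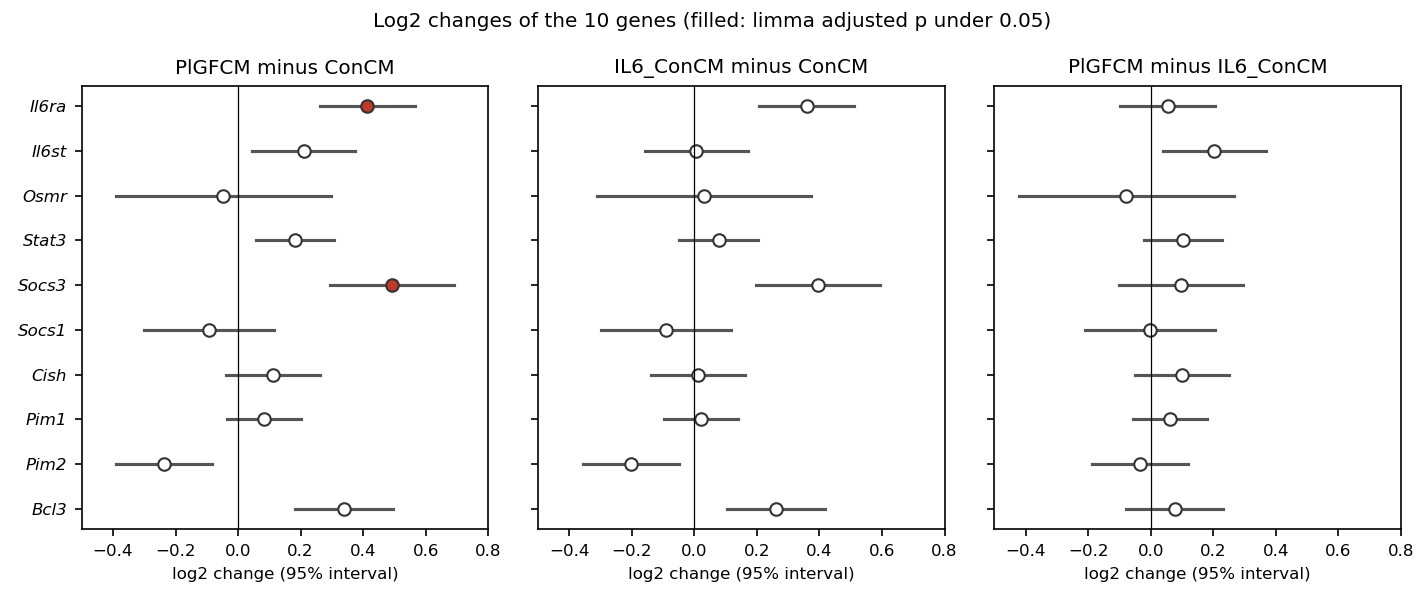
Log2 change of the 10 genes (horizontal axis, with 95% intervals) in the 3 pairwise comparisons, filled where the limma adjusted p was under 0.05. Il6ra and Socs3 are filled in PlGFCM minus ConCM, and no gene is filled in the other 2 panels.

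In IL6_ConCM against ConCM, which asked what added IL-6 changes, none of the 10 genes passed with limma, where 0.113% of all genes did (0.0857% upwards and 0.0271% downwards). At an unadjusted p under 0.05, 3 were higher and 1 lower, where 5.62% of all genes reached it, 2.62% upwards. Socs3 was at 0.40 ± 0.09 (SE) with a limma adjusted p of 0.217, and Il6ra at 0.36 ± 0.07 with an adjusted p of 0.101. Bcl3 was at 0.26 ± 0.07 (adjusted p = 0.408) and Pim2 at -0.20 ± 0.07 (adjusted p = 0.693). Stat3 was at 0.08 (95% interval -0.05 to 0.20), Il6st at 0.01 (-0.16 to 0.17), Cish at 0.01 (-0.14 to 0.16), Pim1 at 0.02 (-0.10 to 0.14) and Osmr at 0.03 (-0.31 to 0.37).

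This comparison and that of PlGFCM use the same 2 ConCM arrays. Groups did not overlap for 4 genes that were higher with IL-6 (Il6ra, Stat3, Socs3 and Bcl3) and for 2 that were lower (Socs1 and Pim2), where 15.7% and 18.4% of all genes were placed so. In PlGFCM against ConCM it was 7 higher and 1 lower, against 17.3% and 20.9% of all genes. The 7 were Il6ra, Il6st, Stat3, Socs3, Cish, Pim1 and Bcl3.

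PlGFCM and IL6_ConCM were also compared directly. None of the 10 genes passed with limma, where 0.0316% of all genes did, and 1 of the 10 was higher at an unadjusted p under 0.05, where 4.37% of all genes reached it, 2.56% upwards. Groups did not overlap for 5 genes higher in PlGFCM (Il6ra, Il6st, Stat3, Cish and Pim1) and 0 lower, where 15.2% and 14.9% of all genes were placed so. The gene at an unadjusted p under 0.05 was Il6st, higher in PlGFCM by 0.20 ± 0.08 (SE) with a limma adjusted p of 0.998. For Il6ra the difference was 0.05 (95% interval -0.10 to 0.21), for Socs3 0.10 (-0.10 to 0.30), for Bcl3 0.08 (-0.08 to 0.23) and for Pim2 -0.03 (-0.19 to 0.12). These intervals leave room for differences in either direction and do not show that the treatments act alike.

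Taking the mean of PlGFCM and IL6_ConCM against ConCM sets 4 arrays against 2. Il6ra was higher by 0.39 ± 0.06 (SE) with a limma adjusted p of 0.0192, and Socs3 by 0.44 ± 0.08 with an adjusted p of 0.0359. These were 2 of 10, where 0.433% of all genes passed (0.334% upwards and 0.0992% downwards). At an unadjusted p under 0.05, 4 were higher and 1 lower, where 8.12% of all genes reached it, 3.89% upwards. Bcl3 was higher by 0.30 ± 0.06 (adjusted p = 0.0805) and Pim2 was at -0.22 ± 0.06 (adjusted p = 0.253). Il6ra, Stat3, Socs3 and Bcl3 lay above both ConCM arrays on all 4 arrays, as did 7.72% of all genes, and Pim2 below them, as did 9.13%. Without PlGFCM replicate 2, Il6ra was at 0.37 (adjusted p = 0.106) and Socs3 at 0.49 (adjusted p = 0.0719). The calls of both genes were lost without ConCM replicate 1 (adjusted p = 0.0771 and 0.0816), ConCM replicate 2 (0.253 and 0.357) and PlGFCM replicate 1 (0.0687 and 0.155), and that of Socs3 also without IL6_ConCM replicate 2 (0.0919). With no intensity trend the adjusted p of Il6ra and Socs3 was 0.393 and 0.451, and with all probe sets tested singly 0.285 and 0.395.

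**Figure D3:**
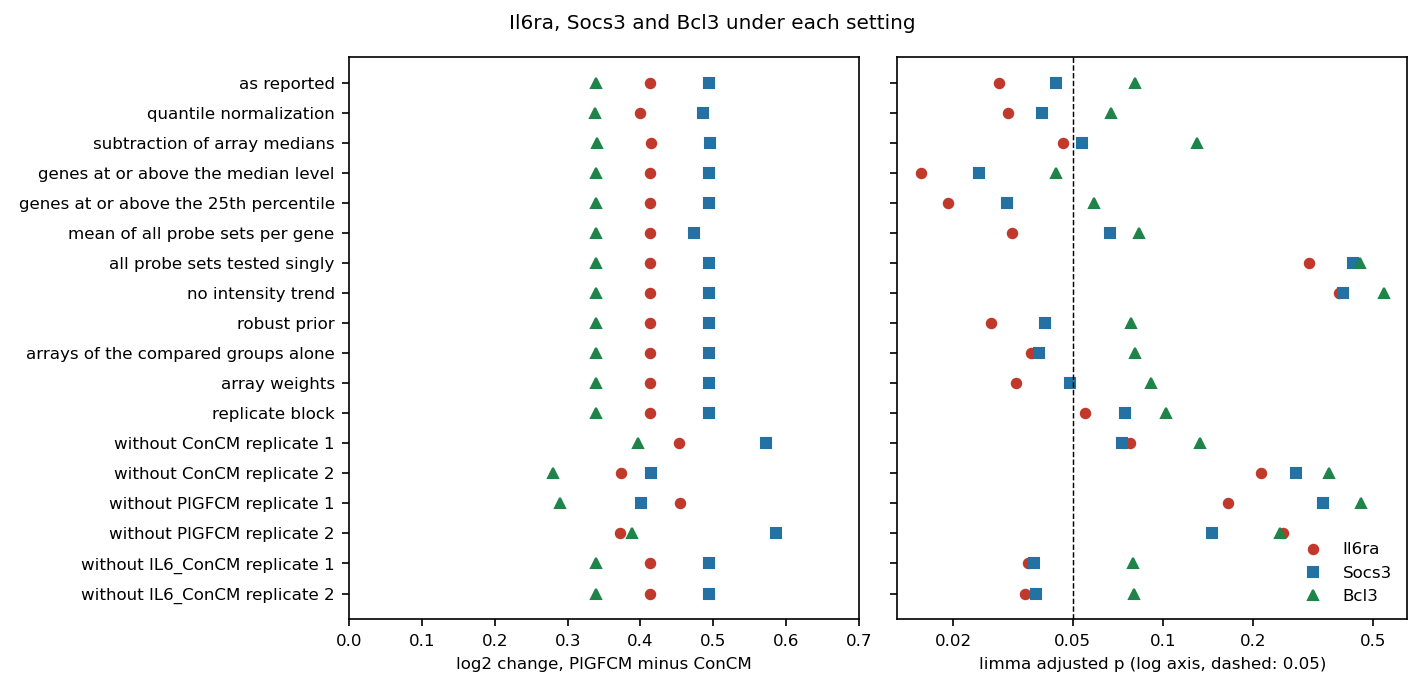
Log2 change of Il6ra, Socs3 and Bcl3 in PlGFCM minus ConCM (left) and its limma adjusted p on a log axis (right) under each setting listed on the vertical axis. The changes stay between 0.28 and 0.59, while the adjusted p lies on either side of 0.05.

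The 10 genes were also set against each other over the 6 arrays. Socs3 and Bcl3 had the closest profiles, with Pearson's r = 0.997, and Pim2 ran opposite to Il6ra with r = -0.944. These values describe 6 points that share arrays, groups and normalization. Among 3768 other named genes that varied by at least 0.5 log2 units, those most like Socs3 were Ppm1j (r = 0.995), Fosl2 (r = 0.991) and Tspan13 (r = 0.982), and 24 had r over 0.95. Those most like Il6ra were Mark4 (r = 0.990), Creb3l2 (r = 0.989) and Malt1 (r = 0.988), and 31 had r over 0.95. Fosl2 encodes an AP-1 factor and Malt1 a protease of antigen receptor signalling.

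Ligands that signal through gp130 gave 0 calls among 7 measured with limma in any of the 4 comparisons. Transcripts of Il6 itself stood at 5.22 and 5.65 on the ConCM arrays, 5.86 and 5.74 on the PlGFCM arrays, and 4.84 and 4.88 on those with IL-6. The groups did not overlap and IL6_ConCM was the lowest. The difference between PlGFCM and IL6_ConCM was 0.94 ± 0.15 (SE) with a limma adjusted p of 0.107. Lif, a cytokine that uses gp130 with its own receptor, was at -0.24 in PlGFCM and -0.37 in IL6_ConCM (adjusted p = 0.523 and 0.414). Osm, which encodes the ligand of Osmr, was at 0.20 in PlGFCM (adjusted p = 0.523).

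Of 9 other receptor chains measured, none passed in the pairwise comparisons with limma, and 1, Il21r, rose in the mean of both treatments, where 0.433% of all genes passed (0.334% upwards). Il21r is the receptor of IL-21, a cytokine that also signals through STAT3. Its levels were 10.32 and 10.03 on the ConCM arrays, 10.63 and 10.62 on the PlGFCM arrays, and 10.66 and 10.69 on those with IL-6, with both ConCM arrays the lowest. The mean change was 0.47 ± 0.07 (SE) with a limma adjusted p of 0.0192, and the single changes were 0.45 (adjusted p = 0.0527) and 0.50 (adjusted p = 0.0586). The mean call of Il21r was lost with no intensity trend (adjusted p = 0.393), with all probe sets tested singly (0.329), and without ConCM replicate 2 (adjusted p = 0.185), PlGFCM replicate 1 (adjusted p = 0.113) or PlGFCM replicate 2 (adjusted p = 0.106). Il27ra, the IL-27 receptor chain, was at 0.20 in PlGFCM (adjusted p = 0.377).

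No kinase, other STAT factor or other negative regulator passed with limma. Of 3 Janus kinases measured, Jak2 was at 0.33 ± 0.07 (SE) in PlGFCM with an adjusted p of 0.0791, with both PlGFCM arrays (11.18 and 11.10) above the other 4. Among 5 other STAT factors, Stat5a was at 0.39 ± 0.08 (adjusted p = 0.0908) and Stat5b at 0.24 ± 0.07 (adjusted p = 0.230) in PlGFCM, and at 0.04 and -0.0049 in IL6_ConCM. Both PlGFCM arrays of Stat5a (9.84 and 9.97) were above all others, which ran from 9.46 to 9.66. Of 17 other negative regulators, Dusp5, a phosphatase of ERK kinases, was at 0.28 in PlGFCM (adjusted p = 0.165), and Socs2, another SOCS gene, at 0.43 in IL6_ConCM (adjusted p = 0.527). Over these 17 the median change was 0.04 in PlGFCM and -0.0092 in IL6_ConCM, against medians of -0.01 and -0.0091 over all genes. Neither of the metalloproteases Adam10 and Adam17, which shed the IL-6 receptor from the cell surface, passed, with changes of 0.12 and 0.08 in PlGFCM. Of 9 genes of NF-kappaB subunits and inhibitors beside Bcl3 none passed with limma in any comparison, and Nfkbia, an inhibitor, was at 0.20 in PlGFCM (adjusted p = 0.353).

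Of 28 listed STAT3 targets measured, 7 rose in PlGFCM, none fell and 21 did not pass, against 0.433% of all genes called, and the median change was 0.25 against -0.01 over all genes. The list was drawn up with earlier results of these data known and holds genes known to have risen, so its count is not independent evidence of a direction. The 7 were Hamp, Il10, Timp1, Il17f, Maf, Ahr and Fosl2.

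Hamp encodes hepcidin, an iron-regulating hormone that IL-6 induces through STAT3 in liver. Its levels were 5.41 and 5.13 on the ConCM arrays, 7.91 and 7.52 on the PlGFCM arrays, and 6.27 and 5.86 on those with IL-6, so the groups did not overlap and PlGFCM was the highest. The change was 2.44 ± 0.17 (SE) in PlGFCM and 0.79 ± 0.17 in IL6_ConCM (limma adjusted p = 9.6e-05 and 0.153). It was the 1 listed target that rose in PlGFCM against IL6_ConCM, by 1.65 ± 0.17 with a limma adjusted p of 0.0067. That call of Hamp was lost without PlGFCM replicate 1 (1.46, adjusted p = 0.0918), PlGFCM replicate 2 (1.84, adjusted p = 0.120) or IL6_ConCM replicate 2 (1.45, adjusted p = 0.0697), with no intensity trend (adjusted p = 0.179) and with all probe sets tested singly (adjusted p = 0.649). Timp1, an inhibitor of metalloproteinases, had levels of 5.52 and 5.50 on the ConCM arrays, 6.58 and 6.67 on the PlGFCM arrays, and 6.03 and 5.94 on those with IL-6, in the same order of groups as Hamp. Fosl2 was at 8.97 and 8.85 on the ConCM arrays, 9.54 and 9.38 on the PlGFCM arrays, and 9.31 and 9.38 on those with IL-6. Its change in PlGFCM was 0.55 ± 0.08 (SE) with a limma adjusted p of 0.0190, and its treated groups overlapped as those of Socs3 did. Maf, a transcription factor of IL-10 and IL-21 producing T cells, rose by 0.85 in PlGFCM and was at 0.22 in IL6_ConCM (adjusted p = 0.981).

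Without PlGFCM replicate 2, 2 of the 28 rose (Hamp and Timp1), and the number was also 2 without PlGFCM replicate 1 and without ConCM replicate 2, and 6 without ConCM replicate 1. With no intensity trend it was 2, and with all probe sets tested singly 0. In IL6_ConCM none of the 28 passed with limma, where 0.113% of all genes did. At an unadjusted p under 0.05, 12 of the 28 were higher and 1 lower, where 5.62% of all genes reached it (2.62% upwards), and the median change was 0.20. In the mean of both treatments 7 rose, where 0.433% of all genes passed, with Il4ra, the receptor chain for IL-4, in place of Maf. The mean change of Il4ra was 0.31 ± 0.05 (SE). Its limma adjusted p was 0.0289. With 1 array left out, which leaves 1 array in a group, the change was 0.25 to 0.38. The call was lost without ConCM replicate 2, PlGFCM replicate 1, PlGFCM replicate 2 or IL6_ConCM replicate 2. It was also lost with no intensity trend and with all probe sets tested singly. In IL6_ConCM Il4ra was at 0.37 (limma adjusted p = 0.0550). It alone of the 28 passed there with quantile normalization, either filter on low levels, a robust prior or array weights. Under these settings 26 to 53 of all genes passed, against 25 as reported. For the mean of both treatments, the median change of the 28 was 0.23 without ConCM replicate 2. It was 0.25 without PlGFCM replicate 1 and 0.26 without PlGFCM replicate 2. Each of these fits leaves 1 array in a group, and fewer of the 28 and of all genes passed. In that contrast 0 of the 28 passed with no intensity trend, where 2 of 22180 genes did. With all probe sets tested singly it was also 0, where 2 of 41345 probe sets passed.

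**Figure D4:**
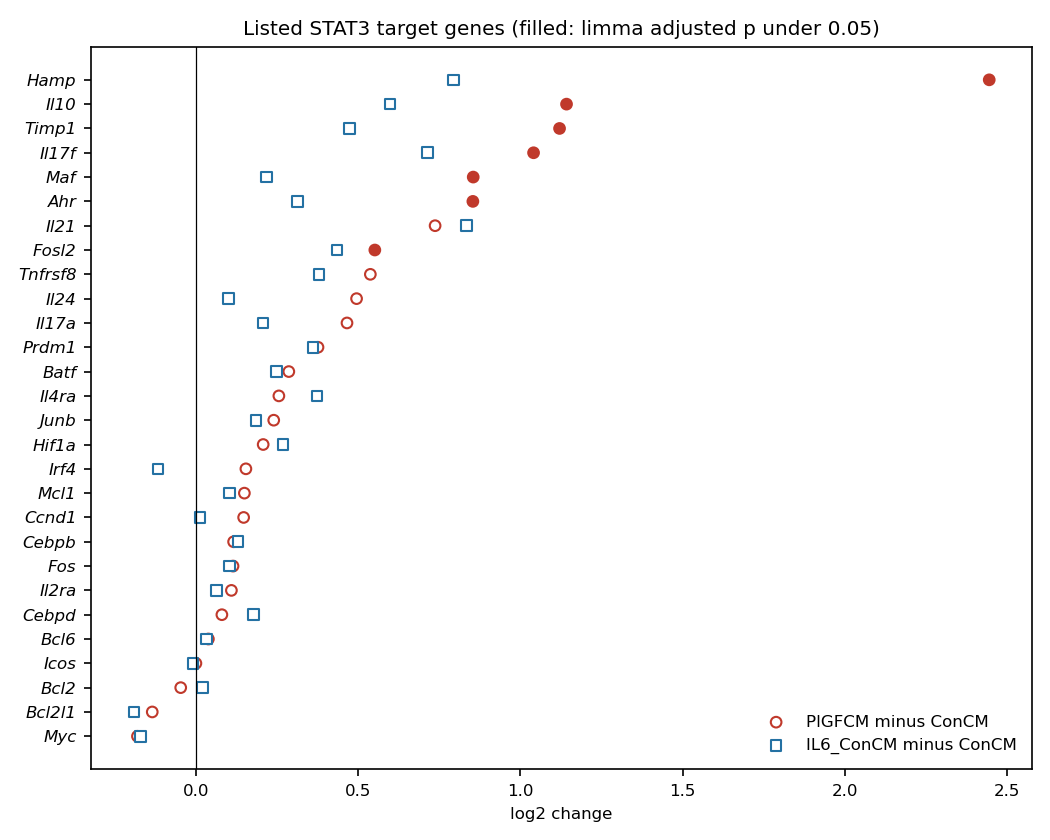
Log2 change of the 28 listed STAT3 targets (one per line) in PlGFCM (circles) and IL6_ConCM (squares), each against ConCM, filled where the limma adjusted p was under 0.05. The 7 filled circles lie between 0.55 and 2.44, and no square is filled.

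Markers of other cell types were measured beside these genes, as myeloid and B cells also express Il6ra, Socs3 and Bcl3. Of 12 myeloid markers Clec7a fell by 0.60 in PlGFCM (limma adjusted p = 0.0383) and none rose. Of all genes 0.0812% fell and 0.352% rose in this comparison. Cd14 was at 0.67 (adjusted p = 0.0806). The log2 of the summed myeloid signal was 10.18 to 10.28 in ConCM, 10.21 to 10.29 in PlGFCM and 10.25 to 10.26 in IL6_ConCM, ranges that overlap. The mean log2 level of the 12, which weights each marker alike, did not overlap. It was 6.07 and 6.03 in PlGFCM, above ConCM (5.94 and 5.98) and IL6_ConCM (5.96 and 5.95). Of 7 B cell markers Fcer2a and Ms4a1 fell by 0.86 and 0.84 in PlGFCM (limma adjusted p = 0.0206 and 0.0125), against 0.0812% of all genes. The other 5 had positive changes that did not pass, up to 0.47 for Cr2. The median change of the 7 was 0.22, and 4 of the 5 did not overlap with ConCM, where 17.3% of all genes were placed so. Without PlGFCM replicate 2 the changes of Clec7a, Fcer2a and Ms4a1 were -0.51, -0.999 and -0.93 with limma adjusted p of 0.283, 0.0992 and 0.0841. These calls were also lost without PlGFCM replicate 1 (adjusted p = 0.143, 0.186 and 0.118) or ConCM replicate 2 (0.281, 0.180 and 0.103), and that of Ms4a1 without ConCM replicate 1 (0.0698). The log2 of the summed B cell signal was 9.41 to 9.45 in ConCM, 9.38 in PlGFCM and 9.34 to 9.36 in IL6_ConCM. The mean log2 level of the 7 was 6.49 and 6.42 in ConCM, 6.43 in PlGFCM, and 6.40 and 6.45 in IL6_ConCM. None of 8 T cell, 2 CD8 or 3 NK cell markers passed. The part of these cells in the changes of the 10 genes was not tested.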

How the data were processed

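The authors deposited a log2 level per probe set and array, and the submitters' processing notes name Transcriptome Analysis Console. The sources used here state no version, normalization or build, and the range of the values gave the log2 scale. Array medians ran from 5.47 to 5.51, and no further normalization was applied. Of 41345 probe sets, 23521 had 1 gene symbol, 1814 several (left out) and 16010 none. Taking the brightest probe set of each gene left 22180 genes, none removed for a low level.

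Differences were tested with limma 3.58.1 in R 4.3.3 (lmFit, then eBayes allowing for an intensity trend). The fit used all 6 arrays and had 3 residual degrees of freedom. The 4 contrasts were the 3 pairs of groups and the mean of both treatments against ConCM. With 2 arrays a group, the smallest two-sided p of an exact permutation test is 1 in 3. Tested on simulated data (the contrast PlGFCM minus ConCM, 22180 genes, 200 altered), the fit recovered 22.4% of 0.5 log2 changes and 88.6% of 1 log2 changes, and 5.42% of its calls were false. Arrays give no read depth, so their number limits the precision.

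The 10 genes, the lists and the tests were chosen with earlier results of these data known. Named are the 10 genes, list members that passed or had the 2 smallest p against ConCM, sex-linked genes as a check, and the 3 genes most like Socs3 and Il6ra. Alternatives covered normalization, filters, probe set choice, prior, samples, weights, a replicate block and each array left out.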

Additional observations from a re-analysis of the deposited data

How the results depend on the processing

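The number of the 10 genes that passed was 2 in PlGFCM against ConCM. It was 1 after subtraction of array medians and when probe sets of a gene were averaged, and 0 with all probe sets tested singly, with no intensity trend and with a replicate block. In the mean of both treatments against ConCM it was 2. There it was 0 with all probe sets tested singly and with no intensity trend, and 1 with a replicate block. Among genes of at least median level the number was 3 in both comparisons. Bcl3 then passed beside Il6ra and Socs3 (limma adjusted p = 0.0440 in PlGFCM and 0.0435 in the mean). With 1 array left out it ranged from 0 to 2 in both comparisons. In the other comparisons it was 0 under every alternative run. Over all genes, calls in PlGFCM against ConCM numbered 96, but 174 among genes of at least median level, 5 with all probe sets tested singly, 6 with no intensity trend, 62 with the replicate block, and 12 to 107 with 1 array left out. With the block the adjusted p in that comparison was 0.0550 for Il6ra and 0.0750 for Socs3. Replicate numbers are shared between groups, but deviations of same-numbered arrays correlated at -0.04, 0.11 and 0.03 across genes, so the block was not taken as a pairing. Of the 28 STAT3 targets, 7 rose in that comparison, and 6 with the block.

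Il6ra, Stat3, Socs3 and Bcl3 kept a positive and Pim2 a negative change against ConCM under every alternative run. Of 662 values of the 10 genes under alternatives, 30 lost a call, 2 gained 1 and 20 turned sign, none of the latter from a value that had passed. Socs1 in PlGFCM against IL6_ConCM turned to 0.0069 after subtraction of array medians, and with averaged probe sets Cish turned to -0.0135 and Pim1 to -0.0256 in IL6_ConCM against ConCM. With 1 array left out, changes in IL6_ConCM against ConCM ran from -0.0797 to 0.0919 for Il6st, -0.14 to 0.20 for Osmr, -0.0543 to 0.0776 for Cish and -0.0065 to 0.0470 for Pim1. In PlGFCM against ConCM they ran from -0.22 to 0.12 for Osmr and -0.22 to 0.0359 for Socs1. In PlGFCM against IL6_ConCM they ran from -0.13 to 0.13 for Socs1 and -0.0898 to 0.0214 for Pim2, and in the mean of both treatments from -0.0044 to 0.13 for Cish and -0.18 to 0.16 for Osmr. Osmr could not be followed under either filter on low levels. Restricting the fit to the arrays compared does not apply to the mean of both treatments, which uses all 6. The cause of these shifts was not tested.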
